A study of Mus musculus with 4 samples.

Results

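Sox7, Sox17 and Sox18 are the 3 genes of the SoxF family of transcription factors. They were taken by symbol from the 31053 genes of the deposited tables, and all 3 had a row. The study measured RNA in single cells of the mouse aorta-gonad-mesonephros region (AGM, where the first blood stem cells arise) at embryonic day 10.5, in 2 wild-type (WT) and 2 miR-223-/- (KO) libraries. Cells were sorted as CD31-positive and CD45-negative, which takes endothelial cells and leaves out most blood cells, and were processed with the 10x Genomics Chromium 3′ kit, version 3. WT and KO embryos were age-matched, and both groups went through the same sort. The labels name no strain, and give neither the number of embryos behind a library nor whether replicates had separate embryos. A p-value here therefore sets differences against the spread of 2 libraries per group, and that spread may be technical.

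SoxF proteins bind DNA through an HMG box and carry a C-terminal region that activates transcription. They act in endothelial cells from the first vessels onward, partly redundantly: Sox17 is known for its part in arterial identity and in hemogenic endothelium, Sox18 for lymphatic specification and vessel integrity, and Sox7 for early endothelial and hemogenic stages. Upstream they are linked with VEGF, Notch, ETS factors and Wnt signalling, and downstream with Notch ligands and receptors and with junction genes. Hemogenic endothelium is the endothelium that turns into blood, and in this transition SoxF genes are known to be switched down while Runx1 and other blood factors are switched on. miR-223 is a microRNA of blood cells, best known in the myeloid lineage.

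Because the KO lacks miR-223, the sequence of its 3p arm and a match to the seed of that arm in Sox7 are shown, while the 5p arm was not searched. Bases 2 to 8 of the microRNA (the seed, in capitals) and the 7 letters complementary to it in the Sox7 transcript (in capitals) are marked.
mmu-miR-223-3p: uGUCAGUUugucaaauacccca
Sox7 3′ UTR site: gtggaagaagagAACTGACtcctgcaagtt
The microRNA lies at chrX:96242884-96242905 on the plus strand (RefSeq, GRCm38.p6). In the GENCODE M21 annotation of GRCm38, matched by Ensembl identifier, Sox7 (ENSMUSG00000063060) lies at chr14:63943673-63950732 on the plus strand and has 2 exons. Its 3′ UTR of 2073 bases holds AACTGAC at 1 place on the transcript strand, 715 bases after the stop codon, and does not hold AACTGACA. Sox17 (ENSMUSG00000025902, chr1:4490931-4497354, minus strand) and Sox18 (ENSMUSG00000046470, chr2:181669836-181671640, minus strand, 2 exons) have longest 3′ UTRs of 785 and 367 bases, without AACTGAC. Of 20993 genes with an annotated 3′ UTR, 8.74% hold AACTGAC, and of the 3084 with a UTR close in length to that of Sox7 (the shorter at least 0.8 times the longer), 12.6% do. A match of letters is a description and not a binding site. Sox17 has 8 annotated transcripts and overlaps Gm37587, a processed transcript on the other strand without a row in the tables. The overlap is at the 5′ end of Sox17, away from the end that a 3′ kit reads, and the use of strand in counting was not given in these sources.

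Total counts were 95158639 to 181682389 unique molecular identifiers (UMIs, each marking 1 captured RNA molecule) per library. After filters 19184 cells remained, 2300 and 6873 of them WT and 4126 and 5885 KO (replicate 1, then replicate 2). Median UMIs per cell were 30281 in WT replicate 1 and 18340 to 20206 in the other libraries, and pairs of libraries shared 8 to 28 cell barcodes. Mir223 has no row in the tables, so the deletion itself could not be checked from the counts. Of the cells kept, 15524 fell in clusters called endothelial-like and 310 in a hemogenic endothelial-like cluster. The rest were mesenchymal-like (1336 cells), germ cell-like (433), of smaller classes or unnamed (1076). The SoxF genes were kept out of clustering and of all marker lists.

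Classes were named from marker genes. Arterial-like cells (1552) held 2454 to 2828 CPM of 11 arterial markers in sum, against 59.4 to 72.0 in venous-like cells (2519). CPM is the number of UMIs of a gene per 1000000 UMIs of the cells of a class in a library. The sinusoidal-like cluster (929 cells) was led by Oit3, Lyve1, Mrc1, Gpr182 and Stab2, and the sprouting-like cluster (1592) by Kcne3 and Apln. The venous-like cluster had the highest venous markers but was led by other genes, among them Bmp4 and Tll1. The hemogenic endothelial-like cluster was led by Spi1, Runx1, Ikzf2, Adgrg1, Nupr1 and Myb, with the blood genes Coro1a and Lyz2. It held 1680 to 2463 CPM of 8 pan-endothelial markers in sum, against 2711 to 3113 in sinusoidal-like cells, and 120 to 413 CPM of 6 myeloid markers, against 1.93 to 11.1 in the other 4 classes. The WT libraries held 15 and 77 hemogenic endothelial-like cells, the KO libraries 137 and 81. Clusters left without a class by the naming rules hold 5997 further endothelial-like cells, which are 29.7% and 34.5% of the WT cells and 25.3% and 32.3% of the KO cells.

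Sox17 was highest in arterial-like cells. Its level there was 367 and 314 CPM in WT and 303 and 323 CPM in KO, a mean of 327 ± 27.8 (SD, n = 4 libraries), against 113 ± 5.96 over all endothelial-like cells. In sprouting-like cells it was 110, 95.1, 107 and 91.7 CPM (WT replicates 1 and 2, then KO replicates 1 and 2, an order kept in all lists of 4 values below). Sinusoidal-like cells had 95.4, 91.9, 96.7 and 88.9 CPM. These classes lay next to each other in the order and their ranges overlapped, although the sprouting-like value was the higher in 4 of 4 libraries. Hemogenic endothelial-like cells had 52.6, 60.9, 48.2 and 66.8 CPM of Sox17, and venous-like cells 72.4, 56.5, 45.4 and 46.2. Each library of the arterial-like class stood above every library of the other 4 classes, and each library of the sprouting-like and sinusoidal-like classes above every library of the hemogenic and venous-like ones. The lowest neighbours, hemogenic (57.1 ± 8.35) and venous-like (55.1 ± 12.6), did not differ beyond their spread. Within libraries the arterial-like level exceeded the venous-like one by 2.59 ± 0.22 on the log2 scale (SD over 4 libraries). Clusters were made from genes of the same cells, so levels of one class against another are given as a description, with no test.

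**Figure D1:**
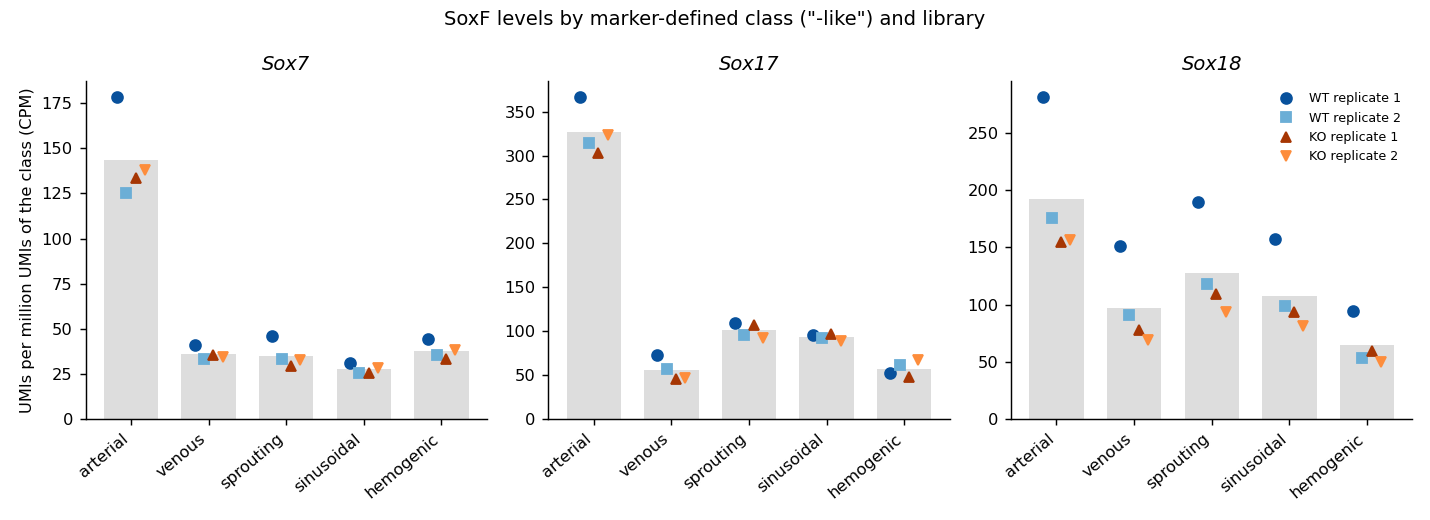
Level of each SoxF gene (CPM, vertical axis) in the arterial-, venous-, sprouting-, sinusoidal- and hemogenic endothelial-like class; points are the 4 libraries and bars their mean. All 3 genes have their highest bar in arterial-like cells, at 144 CPM for Sox7, 327 for Sox17 and 192 for Sox18, and WT replicate 1 holds the highest Sox18 point in every class.

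Among these classes Sox7 showed a sharper division, with the arterial-like class high and the other 4 close together. The arterial-like level was 178, 125, 134 and 138 CPM (mean 144 ± 23.7), above the 56.4 ± 4.61 CPM of all endothelial-like cells by 1.34 ± 0.17 on the log2 scale. Hemogenic endothelial-like cells held 44.2, 35.5, 33.1 and 38.3 CPM. Venous-like cells held 41.1, 33.1, 35.5 and 34.3 CPM. Sox7 thus did not separate these classes beyond the spread between libraries, nor the sprouting-like class, with 46.0, 32.9, 29.0 and 32.4 CPM. The sinusoidal-like class was lowest, at 30.9, 25.3, 25.4 and 28.1 CPM, below the sprouting-like value in each library and with ranges that overlapped. The arterial-like excess over venous-like cells was 1.99 ± 0.10 on the log2 scale. This division describes the named classes and not every cluster. Of the clusters joined in the arterial-like class, one had a mean of 191 CPM of Sox7 and the other 79.9. Unnamed endothelial clusters described below had means of 99.9 and 95.9 CPM, with ranges that overlapped that of the lower arterial-like cluster. The place of the sprouting-like class also changed with called doublets kept, as given below.

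Sox18 was the most evenly spread of the 3 genes over the classes. Its arterial-like level was 282, 175, 155 and 157 CPM (mean 192 ± 60.3), and the excess over venous-like cells was 1.01 ± 0.12 on the log2 scale. Sprouting-like cells held 190, 118, 109 and 93.5 CPM. Sinusoidal-like cells held 157, 98.4, 93.3 and 81.4 CPM. WT replicate 1 was the highest library in each class, by more than the distance between neighbouring classes. Venous-like cells held 151, 90.8, 77.7 and 69.4 CPM of Sox18, and hemogenic endothelial-like cells 94.7, 53.2, 59.6 and 49.6. Within each of the 4 libraries the order was the same, arterial-, sprouting-, sinusoidal-, venous- and hemogenic-like, while the ranges of all neighbours in it overlapped across libraries. The sprouting-like class depended on how cells were clustered: with called doublets kept, its levels of Sox7 and Sox18 lay above those of all endothelial-like cells, by 0.56 and 0.37 on the log2 scale, and with the SoxF genes allowed into clustering that of Sox18 did, by 0.11.

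Arterial-like cells held less RNA, with median UMIs of 12032 to 20010 per cell by library, against 21949 to 34898 in venous-like cells. Counted per cell and not as CPM, the arterial-like excess over venous-like cells was 3.51 ± 0.58 times for Sox17, 2.30 ± 0.29 times for Sox7 and 1.16 ± 0.14 times for Sox18, each above 1 in 4 of 4 libraries. For Sox18 the arterial-like cells held 0.947 ± 0.119 times the UMIs per cell of sprouting-like cells (higher in 1 of 4 libraries) and 1.04 ± 0.12 times those of sinusoidal-like cells (higher in 2 of 4). The arterial-like lead of Sox18 over these classes therefore appeared in CPM and not per cell, whereas those of Sox17 and Sox7 appeared on both scales. The make-up of the family's RNA shifted as well. Sox17 gave 49.7 ± 3.6% of all SoxF UMIs in arterial-like cells and 29.5 ± 1.9% in venous-like cells, and Sox18 gave 28.5 ± 3.9% and 50.7 ± 4.6%. The part of Sox7 was 21.7 ± 1.0% in arterial-like, 23.8 ± 0.7% in hemogenic endothelial-like and 12.1 ± 1.4% in sinusoidal-like cells.

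The arterial-like class joined 2 clusters in which the 3 genes differed. One (829 cells) was led by Gja5 and Gja4, connexins of arterial endothelium, the other (723 cells) by Htra1 and Nkx2-3. Sox7 was 191 ± 27.8 CPM in the first and 79.9 ± 21.5 in the second, a log2 ratio of 1.29 ± 0.26. Sox17 was 351 ± 27.6 and 294 ± 24.8 CPM (0.26 ± 0.02), and Sox18 217 ± 77.6 and 157 ± 32.8 CPM (0.43 ± 0.20). Each gene was the higher in the connexin-led cluster in 4 of 4 libraries, with Sox7 showing the widest gap and no overlap between the clusters.

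Outside the classes described above, the SoxF genes were high in several clusters but not in all. An Esm1-led one of 2413 cells had 99.9 ± 5.9 CPM of Sox7, 128 ± 10.6 of Sox17 and 176 ± 52.2 of Sox18. Esm1 marks sprouting cells, but Unc5b and Hey1 from the arterial list stood among the 10 leading genes of this cluster, and it was left unnamed. Another unnamed cluster of 760 cells, led by Ssu2, Igfbp3 and Hey1, had 95.9 ± 12.1 CPM of Sox7, 141 ± 11.6 of Sox17 and 189 ± 58.5 of Sox18. In contrast, an unnamed cluster of 2389 cells had 29.1 ± 3.2 CPM of Sox7, 97.1 ± 9.3 of Sox17 and 116 ± 36.4 of Sox18. Each gene was lower there than over all endothelial-like cells in every library. A barrier-like cluster of 473 cells, led by Igfbp7, Htra3 and Spock2, had 195 ± 29.0 CPM of Sox17, the next level after the arterial-like clusters. A Prox1-led cluster of 282 cells had the lowest Sox7 of the 15 endothelial clusters, 21.1 ± 3.6 CPM, with 92.9 ± 19.5 CPM of Sox17 and 131 ± 33.3 of Sox18. Prox1 is the master factor of lymphatic fate and a known target of SOX18. Sox17 and Sox18 were lowest, at 21.1 ± 4.9 and 16.6 ± 4.2 CPM, in a cluster of 118 cells led by Fst, Igfbp5 and Irx5, whose pan-endothelial markers were also low, by 0.91 on the log2 scale.

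**Figure D2:**
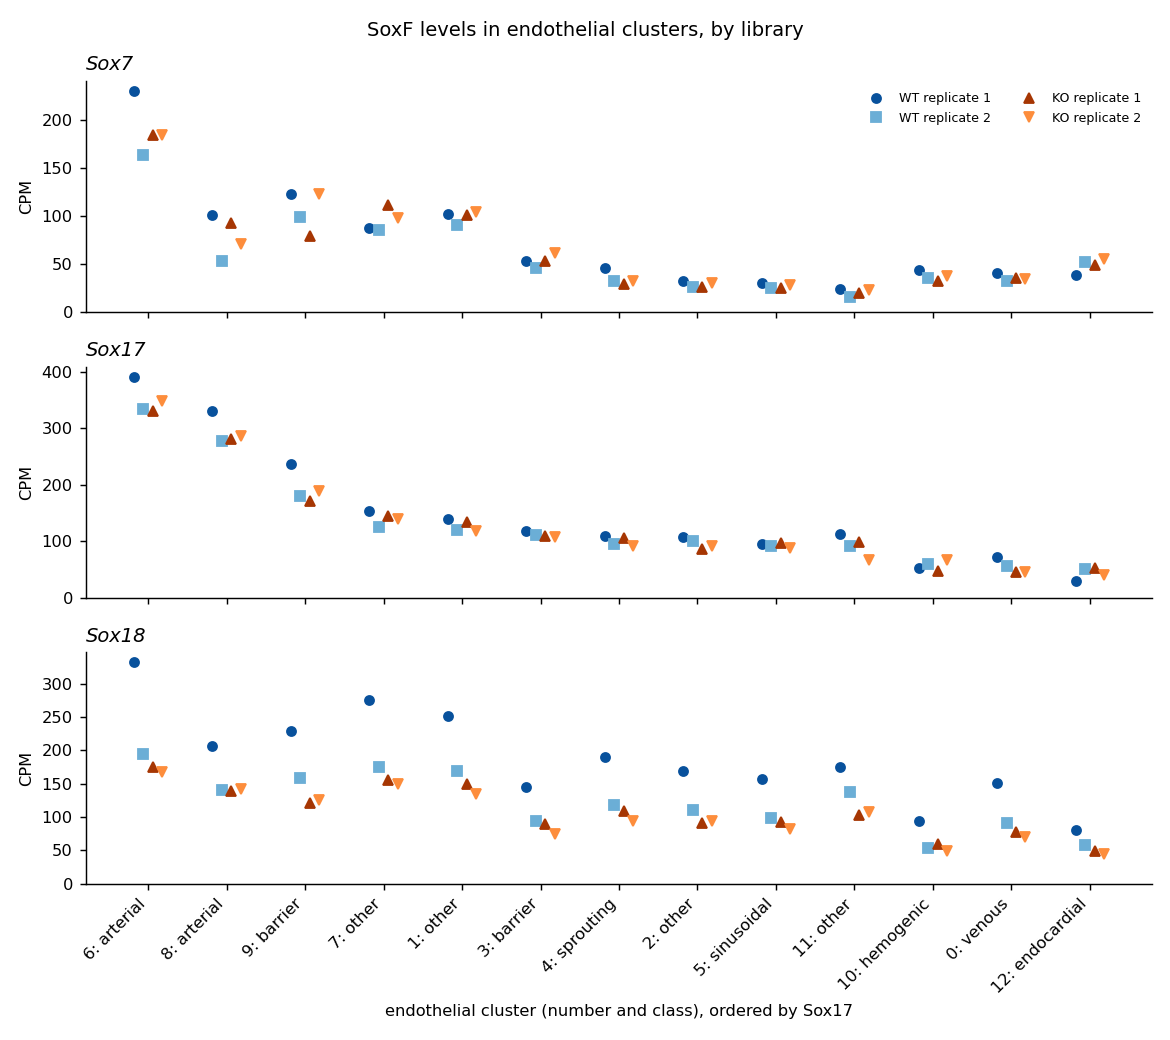
Level of each SoxF gene (CPM, vertical axes) in the 13 endothelial clusters with at least 10 cells in every library, ordered from left to right by Sox17; points are the 4 libraries. Mean Sox17 runs from 351 to 43.9 CPM along the order, Sox7 is highest in the connexin-led arterial-like cluster at 191 CPM, and WT replicate 1 is the highest Sox18 point in 13 of 13 clusters.

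Because clusters draw sharp borders, the genes were also followed along the number of arterial-marker UMIs in a cell, over endothelial-like cells thinned to 5000 UMIs each. Sox17 was higher in each further bin, from 81.8 ± 6.2 CPM in 6913 cells without such a UMI to 164 ± 1.7 CPM at 4 to 7 UMIs, 294 ± 37.9 at 8 to 15 and 352 ± 39.3 in 574 cells with 16 or more. Sox7 reached its highest level earlier. It was 35.9 ± 6.0 CPM without an arterial-marker UMI, 72.8 ± 8.9 at 2 to 3 UMIs, 134 ± 6.9 at 4 to 7, 166 ± 16.7 at 8 to 15 and 130.5 ± 11.2 at 16 or more, and it was lower in the last bin than in the one before in 4 of 4 libraries. Sox18 varied less, from 109 ± 42.2 to 219 ± 78.2 CPM at 8 to 15 UMIs and 206 ± 68.5 at 16 or more. Along venous-marker UMIs the 3 genes were lower: from 1 such UMI (407 cells) to 16 or more (576 cells), Sox17 went from 192 ± 14.9 to 79.8 ± 3.0 CPM, Sox7 from 90.6 ± 12.4 to 39.0 ± 6.9 and Sox18 from 136 ± 35.6 to 113 ± 38.1. Along sprouting-marker UMIs Sox7 was 67.1 ± 6.1 CPM in 9014 cells without one and 61.4 ± 7.2 at 4 to 7 (721 cells). The low Sox7 of the sprouting-like cluster thus did not show along these bins. Sox17 went from 134 ± 8.4 to 112 ± 20.4 CPM and Sox18 from 131 ± 41.4 to 159 ± 56.9. Along sinusoidal-marker UMIs Sox7 went from 72.8 ± 7.2 CPM without one to 25.1 ± 6.7 at 8 to 15. These relations are across cells, which are not replicates, and the bins were chosen after the values of the classes were known.

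**Figure D3:**
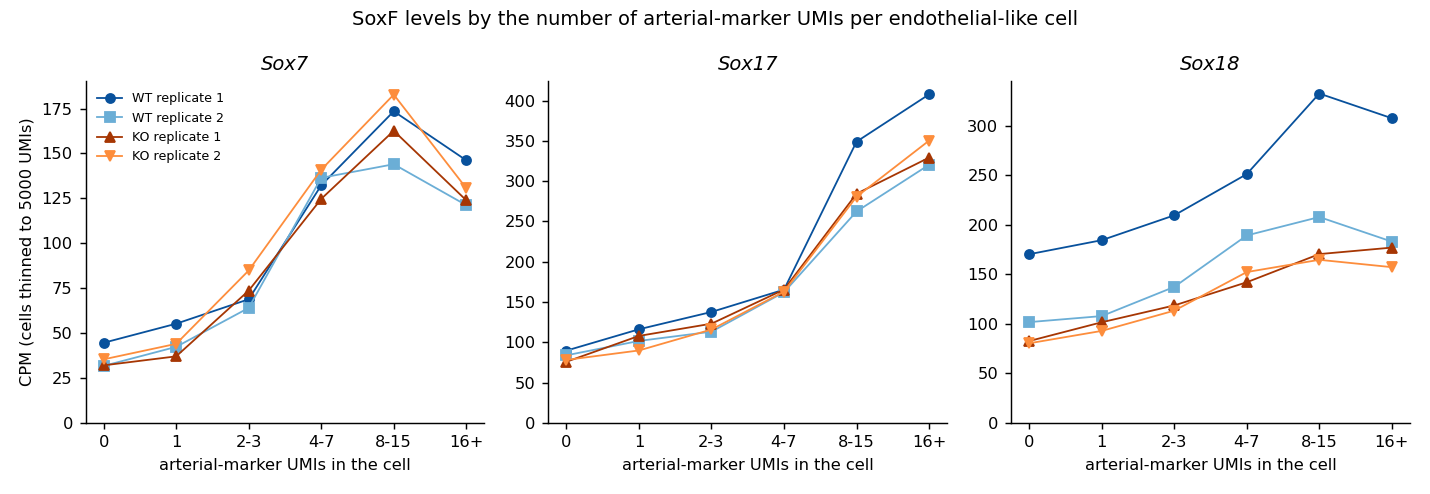
Level of each SoxF gene (CPM, vertical axes, cells thinned to 5000 UMIs) against the number of arterial-marker UMIs in an endothelial-like cell (horizontal axis, 6 bins); lines join the values of a library. Sox17 is highest in the last bin, at 352 CPM on average, while Sox7 is highest at 8 to 15 UMIs (166 CPM) and is lower at 16 or more (130.5 CPM).

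In hemogenic endothelial-like cells the SoxF genes varied with how endothelial a cell was. Within each library the cells were divided at the median of their pan-endothelial marker share. Cells above it (153, with median UMIs of 17594 to 26253 by library) had 112 ± 31.7 CPM of Sox17, 67.3 ± 5.5 of Sox7 and 101 ± 33.1 of Sox18. Cells below it (157, with median UMIs of 24107 to 31165) had 19.0 ± 9.8, 17.0 ± 7.2 and 38.1 ± 12.1 CPM. Sox17 was 77.1, 135, 93.5 and 142 CPM in the former and 33.7, 15.3, 13.3 and 13.8 in the latter, so the ranges did not overlap. Those of Sox7 and Sox18 did not overlap either. The cells were divided by genes that vary with SoxF genes across the clusters, so this only describes the parts above and below the median. Whether the class is graded or mixed was not tested. In WT replicate 1 these parts held 7 and 8 cells, with 16 and 9 Sox17 UMIs. Among arterial-like cells, 38 had a UMI of Runx1, the factor that drives the turn to blood. They had 205 ± 54.3 CPM of Sox17 against 332 ± 28.7 in the 1514 without one, lower in 4 of 4 libraries, with 4 to 16 such cells per library. Sox18 was also lower in them in 4 of 4 libraries, at 139 ± 56.7 against 194 ± 60.6 CPM, and Sox7 was lower in 2 of 4, at 129 ± 59.5 against 144 ± 22.7 CPM.

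At the level of cells, shares were compared at 5000 UMIs per cell, which left out 30 arterial-like and 3 hemogenic endothelial-like cells. A Sox17 UMI was found in 75.3 ± 3.0% of arterial-like cells, 38.7 ± 1.8% of sprouting-like, 34.4 ± 2.6% of sinusoidal-like, 26.5 ± 9.3% of hemogenic endothelial-like and 22.4 ± 5.0% of venous-like cells. Before thinning the arterial-like share was 93.1 ± 3.6% and the venous-like one 60.6 ± 12.4%. Sox18 was found in 57.5 ± 8.8% of arterial-like cells and between 26.1 ± 9.4% (hemogenic endothelial-like) and 46.3 ± 12.7% (sprouting-like) of the other classes. Before thinning it was found in 83.6 ± 7.4% of arterial-like and 81.3 ± 9.1% of venous-like cells. Its shares in these classes therefore lay apart at equal depth and close together before thinning. Sox7 was found in 43.8 ± 3.7% of arterial-like cells and 12.3 ± 1.5% (sinusoidal-like) to 17.1 ± 1.8% (venous-like) of the others. In mesenchymal-like cells, which should lack these genes, shares at the same depth were 1.85 ± 1.05% for Sox17, 1.07 ± 0.58% for Sox18 and 1.01 ± 0.61% for Sox7, with median depths before thinning of 16544 to 25021 UMIs. All shares in the endothelial classes stood above that background.

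Most arterial-like cells showed more than 1 SoxF gene. At 5000 UMIs, 63.8 ± 5.9% held UMIs of 2 or 3 of the genes, 20.3 ± 6.9% held all 3 and 7.50 ± 1.68% held none. In the other classes 15.9 ± 6.2% (venous-like) to 27.5 ± 8.5% (sprouting-like) held 2 or 3. Were the genes detected independently of each other within a class and library, 63.5% of arterial-like, 16.2% of venous-like, 26.2% of sprouting-like and 19.4% of sinusoidal-like cells would hold 2 or 3, against 63.8%, 15.9%, 27.5% and 19.4% found. Within these classes the genes were therefore found together about as often as their shares alone give. In hemogenic endothelial-like cells 17.95 ± 5.97% held 2 or 3 against 12.8% by independence, a ratio of 1.39 (1.18 to 1.62 over libraries), and 52.3 ± 5.7% held none. In another random draw of the UMIs the ratio was 1.29, from 0.902 in KO replicate 2 to 1.48, so it was not above 1 in every library. The pair of Sox7 and Sox17 stood furthest from independence there, at 2.40 times, on 27 cells, but in the other draw that ratio was 1.16 on 15 cells. Counts this sparse do not settle which pair goes together.

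**Figure D4:**
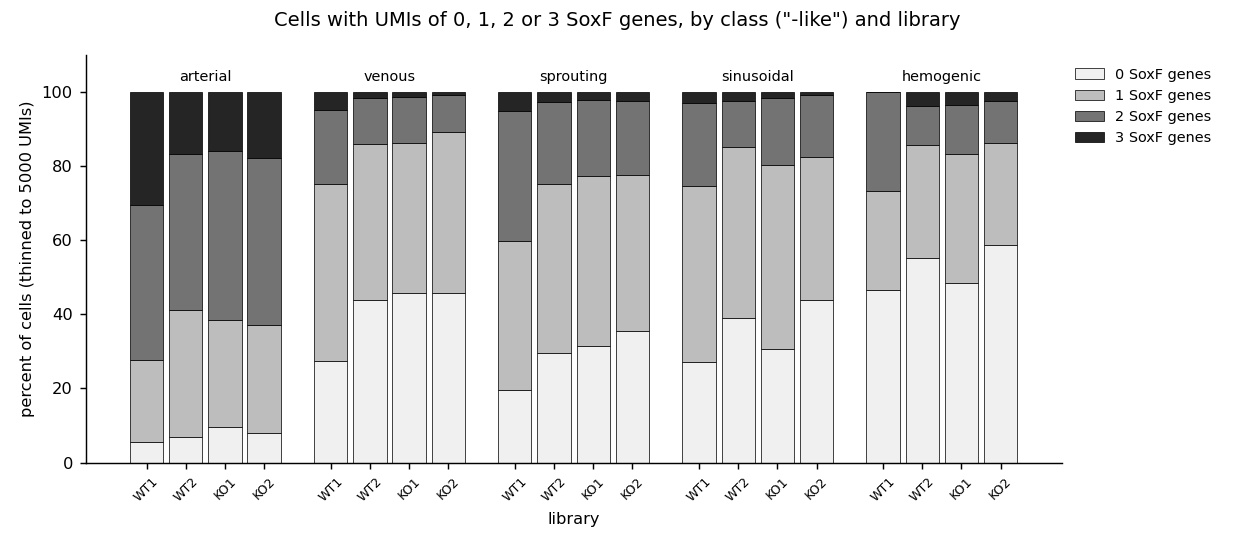
Percent of cells (vertical axis, cells thinned to 5000 UMIs) with UMIs of 0, 1, 2 or 3 SoxF genes, as stacked bars per library and class. Arterial-like cells with 2 or 3 genes make up 58.8 to 72.2% by library, and hemogenic endothelial-like cells have the largest part without any, on average 52.3%.

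For KO against WT, the question was whether loss of miR-223 goes with a change of SoxF expression in any class. No SoxF gene passed an adjusted p of 0.05 (edgeR quasi-likelihood test on summed counts, Benjamini-Hochberg over all genes) in any of the 6 comparisons, which called 0.102% of 14678 genes in endothelial-like, 0.0356% in arterial-like, 0.0497% in venous-like, 0.0538% in sprouting-like, 0.0568% in sinusoidal-like and 0.0214% in hemogenic endothelial-like cells. Few genes passed at all, 2 to 15 by class. An exact permutation test of 2 libraries against 2 cannot give a p below 0.33.

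Sox18 came nearest to a difference. Its level over all endothelial-like cells was 186 and 121 CPM in WT and 104 and 98.8 CPM in KO. The KO level was lower by 33.3%, a log2 change of -0.58 ± 0.19 (SE, edgeR adjusted p = 1.0), which stood at place 109 of 14678 genes ordered by p. In venous-like cells the log2 change was -0.70 ± 0.21 (place 44 of 12062), in sprouting-like -0.58 ± 0.19 (46 of 11150), in sinusoidal-like -0.54 ± 0.20 (100 of 10570) and in arterial-like cells -0.52 ± 0.19 (88 of 11235), each with an adjusted p of 1.0. Both KO libraries lay below both WT libraries in these 5 comparisons, as did 12.3% of all genes in endothelial-like, 15.7% in arterial-like, 13.3% in venous-like, 14.5% in sprouting-like and 13.0% in sinusoidal-like cells. In hemogenic endothelial-like cells the groups overlapped, with a log2 change of -0.30 ± 0.25 (adjusted p = 1.0), beside 14.8% of genes with both KO libraries lower. The classes share their libraries, so the like values across them are not independent.

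The size of the Sox18 difference rested on WT replicate 1. Without that library the log2 changes were -0.25 in endothelial-like, -0.17 in arterial-like, -0.31 in venous-like, -0.22 in sprouting-like, -0.19 in sinusoidal-like and 0.015 in hemogenic endothelial-like cells. Without WT replicate 2, in contrast, the log2 changes of Sox18 were larger, at -0.86 in endothelial-like and -0.82 in arterial-like cells. They were -1.005 in venous-like, -0.87 in sprouting-like and -0.82 in sinusoidal-like cells. In this fit and in the one without WT replicate 1, a lone WT library is assumed to vary like the KO libraries. Sox18 in WT replicate 1 was the highest of the 4 libraries in 13 of 13 endothelial clusters, where 25.7 to 39.2% of genes had that library highest. Both KO libraries were below both WT libraries in 11 of the 13 clusters, with 12.7 to 17.6% of all genes so placed, and the median log2 ratio of the group means was -0.56. That library also differed in other respects: its endothelial-like cells had a median of 31212.5 UMIs against 18837 to 20629.5 in the other libraries, and 317 CPM of 6 sinusoidal markers in sum against 198 to 222. Its erythroid markers summed to 166 CPM in these cells, close to the 159 CPM of KO replicate 1 and above 61.4 and 43.3 CPM in the other libraries, and its median mitochondrial share was 5.71% against 4.86 to 5.80%. With all cells thinned to 5000 UMIs, the Sox18 change in endothelial-like cells was -0.59. The part of the other properties in the Sox18 difference was not tested.

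**Figure D5:**
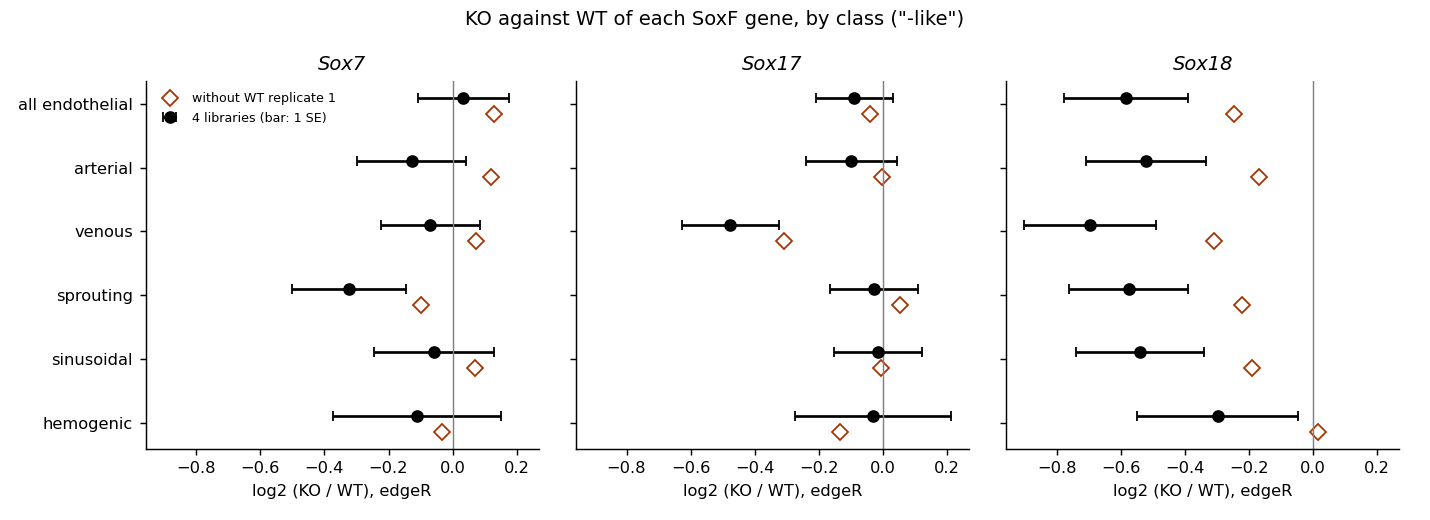
KO against WT of each SoxF gene as a log2 ratio (horizontal axis) by class; black points are edgeR estimates from 4 libraries with bars of 1 SE, open diamonds the estimates without WT replicate 1. Sox18 lies between -0.70 and -0.30 with 4 libraries and between -0.31 and 0.015 without that library, and Sox7 and Sox17 lie near 0 outside sprouting-like and venous-like cells.

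The Sox17 differences were small in most classes. Its log2 change was -0.10 ± 0.14 in arterial-like cells, -0.028 ± 0.136 in sprouting-like, -0.014 ± 0.137 in sinusoidal-like and -0.031 ± 0.244 in hemogenic endothelial-like cells, where the groups overlapped. Venous-like cells were the exception, with 72.4 and 56.5 CPM in WT and 45.4 and 46.2 CPM in KO. The KO level there was lower by 28.1%, a log2 change of -0.48 ± 0.15 (place 53 of 12062 by p, edgeR adjusted p = 1.0), and without WT replicate 1 it was -0.31. Both KO libraries lay below both WT libraries in venous-like cells, as did 13.3% of all genes, and in all endothelial-like cells, as did 12.3%. The change over all endothelial-like cells was -0.089 ± 0.120. Whether the KO change of Sox17 differs between the 5 classes was tested with a class by genotype term: the edgeR adjusted p was 1.0, in a test that called 0.00794% of 12597 genes. It passed without KO replicate 2 (adjusted p = 0.0489) and with no filter on low counts (0.0289), and not without WT replicate 1 (1.0). For Sox7 and Sox18 the same test gave an adjusted p of 1.0.

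Sox7, the gene with the seed match, was 59.9 and 52.2 CPM in WT and 52.6 and 60.9 CPM in KO endothelial-like cells. The log2 change was 0.034 ± 0.141 (edgeR adjusted p = 1.0). Across classes it ranged from -0.32 ± 0.18 in sprouting-like cells to -0.058 ± 0.188 in sinusoidal-like cells. It was -0.13 ± 0.17 in arterial-like, -0.070 ± 0.154 in venous-like and -0.11 ± 0.26 in hemogenic endothelial-like cells. In sprouting-like cells both KO libraries lay below both WT libraries, as did 14.5% of all genes. Without WT replicate 1 the sprouting-like value was -0.10, and those in arterial-like, venous-like and sinusoidal-like cells turned to 0.12, 0.073 and 0.069. The direction of Sox7 thus depended on that library in these 3 classes, and in no class was a rise in KO measured beyond the error. By cluster, both KO libraries were below both WT libraries in 1 of 13, with 12.7 to 17.6% of all genes so placed. They were above both WT libraries in 1 of 13. The log2 ratio of the group means ran from -0.36 to 0.28 over these clusters, with a median of -0.034.

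Of the genes listed with SoxF, 14 were upstream regulators or partners, 24 are genes linked with SoxF control and 16 are other Sox genes. Kdr, Notch1 and Gata2 were listed both among the regulators and partners and among the genes linked with SoxF control. No listed gene passed in any class. Of the regulators and partners 11 to 14 were tested by class, and their median log2 change lay between -0.14 and -0.013. In endothelial-like cells the log2 change was -0.036 ± 0.116 for the VEGF receptor Kdr, -0.086 ± 0.123 for Notch1 and -0.021 ± 0.210 for the ETS factor Erg. Their levels were not laid out like those of Sox17 in each case: Notch1 was 190 CPM in arterial-like and 66.3 in venous-like cells, whereas Kdr was 526 and 454 CPM, and 105 in hemogenic endothelial-like cells.

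For the genes linked with SoxF control, 20 to 24 were tested by class, and the median log2 change lay between -0.12 and -0.025, against -0.0060 to -0.0026 for all genes tested. More of them had a log2 change below 0 than above in each class: 15 of 24 in endothelial-like, 18 of 24 in arterial-like, 18 of 23 in venous-like, 13 of 23 in sprouting-like, 17 of 20 in sinusoidal-like and 13 of 20 in hemogenic endothelial-like cells, where 50.6 to 51.9% of all genes did. Both KO libraries lay below both WT libraries for 9 of 24 genes in arterial-like cells (15.7% of all genes) and 6 of 23 in venous-like cells (13.3%). They did so for 4 of 24 genes in endothelial-like (12.3% of all genes), 3 of 23 in sprouting-like (14.5%), 3 of 20 in sinusoidal-like (13.0%) and 2 of 20 in hemogenic endothelial-like cells (14.8%). The classes share their libraries, and nothing particular to the list is read from these counts. Vcam1, an adhesion molecule, had the smallest p of the list: it was 4.87 and 3.55 CPM in WT and 2.02 and 2.26 CPM in KO endothelial-like cells, a log2 change of -0.95 ± 0.22 (edgeR adjusted p = 0.795). In sinusoidal-like cells, where its mean level was 34.1 CPM, the log2 change was -0.49 ± 0.17 (adjusted p = 1.0). For Cxcr4, a chemokine receptor of arterial endothelium, the log2 change in arterial-like cells was -0.60 ± 0.17 (adjusted p = 1.0). Dll4, the arterial Notch ligand, was 104 CPM in arterial-like cells and 2.85 CPM in venous-like cells, with a log2 change of -0.075 ± 0.171 in the former. That of Efnb2, an arterial ephrin, was -0.21 ± 0.14 there. Cxcr4, Dll4 and Efnb2 are arterial markers that were used to name the classes, so the Dll4 levels by class are no separate result.

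Among the other Sox genes Sox4 and Sox11, of the SoxC family, had the highest levels, with 227 and 167 CPM over all endothelial-like cells. Sox4 was 480 CPM in arterial-like and 79.4 in sinusoidal-like cells, and Sox11 201 CPM in sprouting-like and 31.0 in hemogenic endothelial-like cells. Of the 16 genes 4 to 13 were tested by class. Their log2 changes between KO and WT in endothelial-like cells were 0.026 ± 0.117 and -0.15 ± 0.14.

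Across the 15 endothelial clusters, the genes with the level pattern most like that of each SoxF gene were found by Pearson's r of log2(CPM + 1) over 7469 genes, as a description. For Sox7 they were Sri (0.949), Plekhg5 (0.930), Cdc42se1 (0.916), Timm10b (0.914) and the arterial marker Cxcr4 (0.914). Those of Sox17 were Msrb3 (0.941), Pon3 (0.931), F11r (0.931), Rit1 (0.925) and Katnbl1 (0.918), and those of Sox18 were Slc25a30 (0.953), Trappc2 (0.942), Card10 (0.941), Katnbl1 (0.940) and Osbpl9 (0.923). Katnbl1 was on both of the latter lists. Between the members, r was 0.886 for Sox17 and Sox18, 0.665 for Sox7 and Sox17 and 0.499 for Sox7 and Sox18. The clusters share libraries and differ in depth, and some hold few cells.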

How the data were processed

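Single-cell RNA was measured in 4 libraries of sorted cells. The deposited tables hold raw UMI counts for each gene in each barcode called a cell, as Cell Ranger 3.1.0 wrote them, per the file headers. The submitters' processing notes also name Seurat 4, but not what it was used for. Aligner, genome build, annotation and use of strand: not given in the sources used here. Totals were 95158639, 181682389, 109713066 and 167542930 UMIs (WT replicates 1 and 2, KO replicates 1 and 2).

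Cells with at least 1000 genes and at most 10% mitochondrial UMIs were kept. Doublets were called per library with the scrublet of scanpy 1.11.5 at 0.8% per 1000 barcodes, and 3.40 to 10.2% of cells were removed. Cells were clustered (2000 variable genes without the SoxF genes, 40 components, 20 neighbours, Leiden, leidenalg 0.10.2), and endothelial clusters again after cell cycle genes were regressed out. A cluster took the class with the highest mean log2 fold of its markers, if above 1.5 (all cells) or 0.5 (endothelial clusters), limits set after the clusters were seen. A cluster with more markers of another class than of its own among its 10 leading genes stayed unnamed. The names were rebuilt here and may differ from the study's. Markers of arterial, venous, sprouting, sinusoidal, hemogenic, barrier, endocardial, pan-endothelial, erythroid, megakaryocyte, myeloid, mesenchymal, mural, germ cell, epithelial and neural cells were used.

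Counts summed per library and class (at least 10 cells) were tested with edgeR 4.0.16 (R 4.3.3; TMM, filterByExpr, robust quasi-likelihood fit), for each class on its own 4 sums and for the difference between classes on 20 sums with library as a term. Benjamini-Hochberg adjustment ran over all genes tested, with a threshold of 0.05. The script was tested on simulated data. Shares were taken at 5000 UMIs per cell, drawn at random, and shares, intervals and floors cover counting error only. Alternatives were DESeq2 1.42.0, no filter on low counts, doublets kept, a replicate block, thinned cells, SoxF genes used for clustering, other depths, and each library left out. Named genes are the SoxF genes, the genes of each list that pass and at most 4 others of each, and the 5 genes most like each SoxF gene, among those with at least 20 CPM in a cluster. Marker-UMI bins, divisions within classes and values per cluster were added after the class values were seen. The SoxF genes and the lists were chosen with earlier results of these data known.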

Additional observations from a re-analysis of the deposited data

Results flagged for a closer look

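Sox17 showed a low signal in germ cell-like cells, a class of 433 cells that no comparison above uses. Its mean over the 4 libraries was 5.79 CPM, with 6.19 and 5.70 CPM in the WT and 6.01 and 5.28 CPM in the KO libraries (16, 35, 19 and 32 UMIs). Each was above the level that 3 UMIs would give there, 0.489 to 1.16 CPM. In mesenchymal-like cells Sox17 was 3.20, 2.51, 2.69 and 4.31 CPM in the same order, so the germ cell-like value was the higher in each library. Sox17 made up 53.3 to 70.4% of the SoxF UMIs of germ cell-like cells and 28.6 to 38.7% of those of mesenchymal-like cells, while Sox7 and Sox18 were lower in germ cell-like than in mesenchymal-like cells on average, at 1.78 against 2.74 CPM and 2.13 against 4.47 CPM. At 5000 UMIs per cell, 18 of 417 germ cell-like cells held a Sox17 UMI. Mean Sox17 was 9.98 ± 8.08 CPM in epithelial-like cells (12 UMIs) and 5.03 ± 2.17 in megakaryocyte-like cells (24 UMIs). It was 2.95 ± 2.44 CPM in erythroid-like cells (18 UMIs) and 2.05 ± 2.57 in neural-like cells (7 UMIs). In erythroid-like cells Sox17 made up 0 to 62.5% of the SoxF UMIs by library. The epithelial-, megakaryocyte-, erythroid- and neural-like classes each held 3 or fewer Sox17 UMIs in some libraries. These values therefore do not settle whether the signal is particular to germ cell-like cells. The source of the germ cell-like UMIs was not tested.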

How the results depend on the processing

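The counts of genes called moved most. Against 15, 4, 6, 6, 6 and 2 in endothelial-, arterial-, venous-, sprouting-, sinusoidal- and hemogenic endothelial-like cells, with no filter on low counts they were 86, 22, 41, 36, 26 and 11. DESeq2 called 43 in endothelial-like and 10 in venous-like cells, and with doublets kept 2 were called in venous-like and 1 in hemogenic endothelial-like cells. With cells thinned to 5000 UMIs, edgeR called 4 in endothelial-like, 1 in arterial-like, 3 in sinusoidal-like and 0 in hemogenic endothelial-like cells, where 171 genes had an unadjusted p under 0.05. The difference between classes, with 1 gene called, gave 2 with DESeq2, 76 with no filter and 4 with doublets kept, and the adjusted p of Sox17 there was 0.0289 with no filter. Leaving out each library, which leaves a lone library assumed to vary like the other group, gave 22 to 92, 10 to 78, 9 to 26, 9 to 52, 15 to 39 and 11 to 60 genes in the order above, and 4 to 150 for the difference.

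Of 180 recomputed KO against WT changes of SoxF genes, 148 kept direction and side of the threshold, 21 changed sign and 11 came to pass the threshold. With no filter Sox18 passed in endothelial-like (log2 -0.57), venous-like (-0.68) and sprouting-like cells (-0.57). Small values turned: Sox7 was 0.077 in arterial-like, 0.17 in sinusoidal-like and 0.12 in hemogenic endothelial-like cells when thinned, Sox7 0.040 and Sox17 0.014 in sprouting-like cells with doublets kept, and Sox17 0.013 (DESeq2) and 0.0030 (no filter) in hemogenic endothelial-like cells. Leaving out a library, in the order above, Sox18 ranged from -0.86 to -0.25, -0.82 to -0.17, -1.005 to -0.31, -0.87 to -0.22, -0.82 to -0.19 and -0.72 to 0.015. Sox7 ranged from -0.077 to 0.14, -0.36 to 0.12, -0.20 to 0.073, -0.54 to -0.10, -0.17 to 0.069 and -0.25 to 0.0089. Sox17 ranged from -0.13 to -0.042, -0.20 to -0.0014, -0.63 to -0.31, -0.12 to 0.064, -0.044 to 0.021 and -0.27 to 0.22, and its adjusted p for the difference between classes from 0.0489 to 1.0.

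The labels number the libraries of each group but do not say that the numbers pair them. Deviations of same-numbered libraries correlated across genes at 0.13 to 0.32, and mesenchymal-like cells were 14.7 and 12.7% of the libraries numbered 1 and 3.30 and 4.25% of those numbered 2. With the number as a replicate block, 56, 2, 41, 27, 14 and 14 genes were called in the order above. Sox18 passed in venous-like (-0.66) and sprouting-like (-0.54) cells and Sox17 in venous-like cells (-0.47), and Sox17 in hemogenic endothelial-like cells turned to 0.043.

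Of 105 recomputed log2 ratios of a class to all endothelial-like cells, 88 moved by less than the spread between libraries and 4 changed sign. With doublets kept, Sox7 was -0.47 in venous-like, 0.56 in sprouting-like and -0.94 in sinusoidal-like cells, Sox17 1.29 in arterial-like, 0.035 in sprouting-like and -0.70 in hemogenic endothelial-like cells, and Sox18 0.51, 0.37 and -0.82 in those 3 classes. With cells thinned, Sox7 was 1.05 in arterial-like, -1.32 in sinusoidal-like and -0.91 in hemogenic endothelial-like cells, Sox17 1.40 in arterial-like and -0.38 in sinusoidal-like cells, and Sox18 -1.16 in hemogenic endothelial-like cells. With SoxF genes used for clustering, sprouting-like cells had -0.37 for Sox7 and 0.11 for Sox18, which ranged from -0.030 to 0.023 with a library left out. The arterial-like share of cells with a UMI exceeded the venous-like one by 19.3 points for Sox7, 36.7 for Sox17 and 12.8 for Sox18 at 2500 UMIs, by 17.0, 32.5 and 2.25 without thinning, and for Sox17 and Sox18 by 48.5 and 16.5 with doublets kept. At 2500 UMIs 30.9% of arterial-like cells held 2 or 3 SoxF genes. The cause of these shifts was not tested, except that fewer UMIs per cell lower every share. The hemogenic endothelial-like values rest on few cells, 310 with 253 Sox7, 399 Sox17 and 409 Sox18 UMIs.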
